A study of Mus musculus with 28 samples.

Results

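PPARG is the nuclear receptor that drives fat storage in adipocytes, and 10 genes of that programme were followed here: Pparg itself, Mogat1, Cidea, Cidec, Plin2, Plin4, Cd36, Vldlr, Fitm1 and Fabp4. They were found by gene name in 2 count tables of 35275 genes each, and all 10 were present in both. The tables hold 28 RNA-seq libraries of mice that lack, or retain, focal adhesion kinase (FAK, gene Ptk2) in the liver epithelium. All mice were FVB with FAKfl/fl alleles, controls included. In the unfed experiment, KO mice carried Alb-Cre and WT mice did not. Unfed here means not given the DDC diet described next, and does not mean fasted. At 6 to 8 weeks of age 4 libraries per genotype were made from whole liver (tissue WT, tissue KO). Another 4 per genotype came from isolated hepatocytes (hepatocyte WT, hepatocyte KO). In the second experiment mice ate a diet with 0.1% DDC, a compound that injures bile ducts, for 4 to 8 weeks, and whole liver was sequenced from 3 mice per group. Bred KO mice carried Alb-Cre and Bred WT mice did not, whereas Virus KO mice received the vector AAV8-TBG-Cre and Virus WT mice the vector AAV8-TBG-Null, 2 weeks before the diet. The albumin promoter of Alb-Cre acts in the fetal liver and deletes the gene in hepatocytes and in bile duct cells, while the TBG promoter of the vector acts in hepatocytes, so Bred KO and Virus KO differ in both the cells and the time of deletion.

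In adipocytes PPARG pairs with RXR on DNA and switches on genes that take up fatty acids, join them to glycerol and wrap the triglyceride in droplets. In the lean liver it is a minor receptor, best known for its rise in fatty liver, where Mogat1, Cidea, Cidec, Plin4, Cd36, Vldlr and Fabp4 have been described as rising with it. Plin2 coats the droplets of ordinary hepatocytes and is also a target of PPARA, the receptor of fatty acid oxidation.

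Library totals ran from 11162678 to 20428773 counts. Ptk2 was lower in every KO library than in every WT library of its experiment, at 0.907 to 1.45 against 3.65 to 6.67 FPKM (counts scaled to gene length and library total) in unfed mice and 2.03 to 3.06 against 5.16 to 8.35 FPKM on DDC. Xist did not exceed 0.0148 FPKM and Ddx3y was at 9.11 FPKM or more in all 28 libraries, so sex did not separate any groups. The hepatocyte markers summed to 21440 FPKM or more in every group. In isolated hepatocytes the 7 macrophage markers summed to 8.96 to 35.3 FPKM, against 81.1 to 115 in unfed whole liver, and the 5 biliary markers to 1.72 to 5.89 against 8.00 to 25.9, with Krt7 at 0 in hepatocytes. Adipocyte markers (6 genes) summed to 0.0713 to 1.59 FPKM across all groups, with Lep and Retn at 0 in all libraries. These are bulk samples, in which fewer cells of a type and less RNA per cell cannot be told apart.

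A promoter window of RefSeq (build GRCm38.p6, which is mm10) from 250 bases before to 50 bases after a start site was matched for 8 of the 10 genes, 12 windows in all. The element that PPARG and RXR bind is a direct repeat with 1 base between its copies (AGGTCA, any base, AGGTCA), and it was searched on both strands with up to 2 of its 12 letters different. It was found in 3 of the 12 windows, those of Mogat1, Plin2 and Cd36, and in 3.86% of all 32851 windows. An exact repeat was in none of the 12 and in 0.0396% of all. The 3 windows with a match are shown because they hold the letters in question, and that of Plin4 because Plin4 was the gene called on DDC. Each runs 5′ to 3′ along its gene, with the matching stretch in capitals. The stretch lies 51 to 39 bases before the start in Mogat1, 225 to 213 before it in Plin2 and 63 to 51 before it in Cd36, and on the opposite strand in the latter pair. The start of the Cd36 window lies inside the gene as annotated in the count tables (chr5:17781690-17888959, − strand), not at its 5′ end. The matching stretch of Mogat1 also lies inside its gene as annotated there (chr1:78510991-78538173, + strand), close to the 5′ end. Mogat1 is chr1:78510810-78511109 (+), Plin2 chr4:86670010-86670309 (−), Cd36 chr5:17835847-17836146 (−) and Plin4 chr17:56109733-56110032 (−).
Mogat1: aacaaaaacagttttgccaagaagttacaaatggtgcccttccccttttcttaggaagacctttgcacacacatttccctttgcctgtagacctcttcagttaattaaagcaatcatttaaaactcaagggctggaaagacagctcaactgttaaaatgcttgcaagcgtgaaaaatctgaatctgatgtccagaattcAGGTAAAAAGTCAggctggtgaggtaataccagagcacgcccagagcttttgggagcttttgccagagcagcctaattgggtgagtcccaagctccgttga
Plin2: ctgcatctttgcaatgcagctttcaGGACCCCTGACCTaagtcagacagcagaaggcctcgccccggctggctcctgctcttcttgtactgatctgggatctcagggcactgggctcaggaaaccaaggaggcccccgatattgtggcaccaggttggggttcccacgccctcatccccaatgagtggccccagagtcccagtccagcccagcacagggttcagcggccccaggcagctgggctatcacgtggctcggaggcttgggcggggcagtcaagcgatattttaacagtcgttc
Cd36: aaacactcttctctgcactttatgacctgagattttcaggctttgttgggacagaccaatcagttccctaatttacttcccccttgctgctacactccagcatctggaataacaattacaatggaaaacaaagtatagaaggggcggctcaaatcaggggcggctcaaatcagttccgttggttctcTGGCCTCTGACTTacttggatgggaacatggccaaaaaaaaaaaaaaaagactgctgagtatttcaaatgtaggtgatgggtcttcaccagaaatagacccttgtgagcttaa
Plin4: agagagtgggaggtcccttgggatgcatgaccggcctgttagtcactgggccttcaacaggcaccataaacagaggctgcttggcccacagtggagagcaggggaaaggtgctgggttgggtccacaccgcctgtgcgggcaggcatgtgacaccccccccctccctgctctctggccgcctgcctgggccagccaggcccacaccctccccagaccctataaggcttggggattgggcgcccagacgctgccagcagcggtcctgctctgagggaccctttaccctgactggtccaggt
The closest stretch in the Plin4 window differed from the repeat by 4 letters and is not marked. A match is a description of letters, not a site in use.

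The 10 genes differed widely in level, which FPKM can compare between genes because it divides by gene length. In tissue WT (n = 4, mean ± SD) Plin2 stood highest at 159 ± 33.6 FPKM, followed by Fitm1 at 36.7 ± 18.5, Fabp4 at 10.4 ± 2.11, Cd36 at 5.52 ± 1.67 and Pparg at 3.67 ± 1.91. Mogat1 at 1.43 ± 0.421, Vldlr at 1.39 ± 0.880 and Cidec at 0.953 ± 0.419 did not differ from one another beyond these spreads. Plin4 at 0.122 ± 0.135 and Cidea at 0.0113 ± 0.0225 were lowest. Of the 10 genes, 9 passed the filter on low counts in both experiments and were tested. Cidea did not, and is given as counts.

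**Figure D1:**
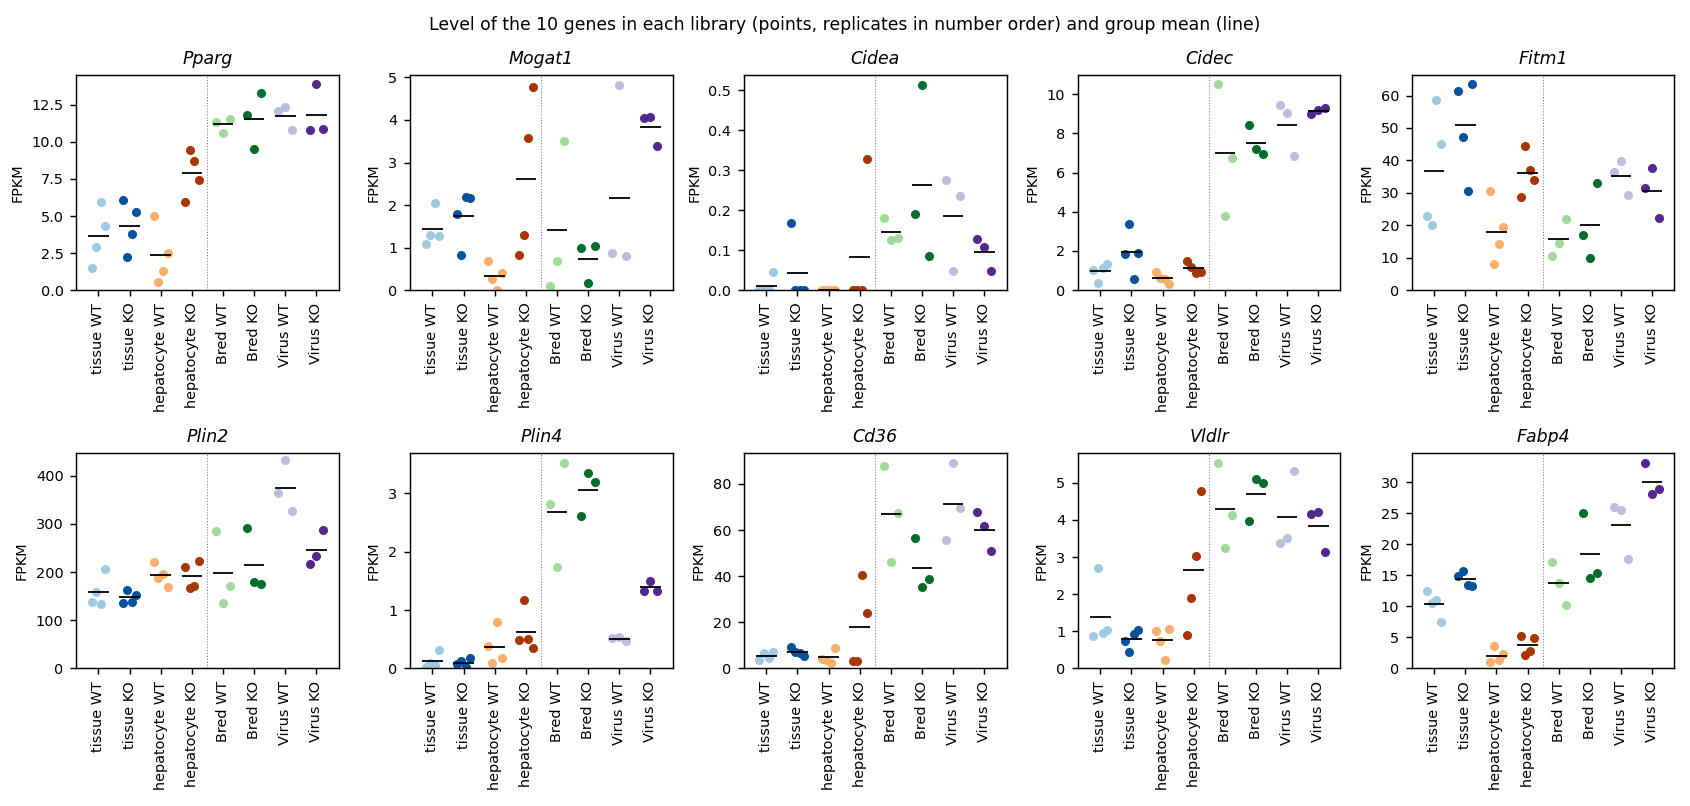
Level in FPKM (vertical axis, from 0, a separate scale for each gene) of the 10 genes in each of the 28 libraries (points) of 8 groups, with the group mean as a line. Pparg sat between 5.98 and 9.44 in the 4 hepatocyte KO libraries and between 0.558 and 4.99 in the 4 hepatocyte WT libraries, and Plin4 between 1.33 and 1.51 in Virus KO against 0.474 to 0.539 in Virus WT.

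The first question was whether FAK loss changes these genes in unfed mice, and it was asked in isolated hepatocytes and in whole liver. In hepatocytes 8 of the 9 tested genes had a higher estimate in KO and Plin2 did not, with a median log2 change of 0.93 against -0.01 over all genes tested. None passed the edgeR quasi-likelihood test at a Benjamini-Hochberg adjusted p under 0.05, a threshold that 0.32% of 12507 genes passed. At an unadjusted p under 0.05 there were 6 (Pparg, Mogat1, Cd36, Vldlr, Fitm1 and Fabp4), where 8.95% of all genes were below it. DESeq2 called 2 of them, Pparg and Mogat1, where it called 1.18% of genes. The groups did not overlap for Pparg and Mogat1, which 5.94% of genes also showed. The genes were chosen with earlier results of these data known, so the shares here and below do not test them as a set.

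Pparg (ENSMUSG00000000440, chr6:115361221-115490401, + strand, mm10) encodes the receptor. Its level in hepatocyte WT replicates 1 to 4 was 4.99, 0.558, 1.30 and 2.52 FPKM, and in hepatocyte KO replicates 1 to 4 it was 5.98, 9.44, 8.68 and 7.40 FPKM. Every KO library was above every WT library, and WT replicate 1 came closest to the KO range. The log2 change was 1.69 ± 0.49 (SE), with an edgeR adjusted p of 0.208 and an exact two-sided permutation p of 0.0286, the smallest that 4 against 4 can give. Pparg passed without WT replicate 1 (2.36, edgeR adjusted p = 0.0494) and with DESeq2 (adjusted p = 0.0370), and over all alternatives the adjusted p ran up to 0.483. In whole liver Pparg stood at 1.495, 2.88, 5.93 and 4.35 FPKM in WT replicates 1 to 4 and at 6.08, 2.26, 3.78 and 5.30 in KO. These groups overlapped across most of their range, with a log2 change of 0.25 ± 0.48 (edgeR adjusted p = 0.821).

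Mogat1 (ENSMUSG00000012187, chr1:78510991-78538173, + strand) encodes a monoacylglycerol acyltransferase, which makes the diacylglycerol that becomes triglyceride. It was at 0.681, 0.266, 0 and 0.401 FPKM in hepatocyte WT replicates 1 to 4 and at 0.822, 1.30, 3.58 and 4.78 in hepatocyte KO. The KO libraries lay above the WT libraries, with KO replicates 3 and 4 highest and KO replicate 1 just above WT replicate 1. These are small numbers, 0 to 15 counts in WT and 16 to 108 in KO, and the 0 in WT replicate 3 allows up to 3 counts. The log2 change was 2.91 ± 0.66, with an edgeR adjusted p of 0.0805 and an exact permutation p of 0.0286, again the smallest possible. Mogat1 passed without KO replicate 1 (3.22, edgeR adjusted p = 0.0273), with no count filter (0.0348) and with DESeq2 (0.000712), and over all alternatives the adjusted p ran up to 0.355. In whole liver it was at 1.09, 1.31, 2.05 and 1.28 FPKM in WT and 1.80, 0.832, 2.19 and 2.18 in KO, overlapping, with a change of 0.29 ± 0.59 (edgeR adjusted p = 0.834). BC035947, on the opposite strand, shares 200 of the 1558 exon bases of Mogat1. The strand setting of the counting is not given in the sources used here, so reads of those bases cannot be told apart, and BC035947 averaged 0.0273 FPKM in hepatocyte WT and 0.0896 in hepatocyte KO.

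Among the proteins on the droplet, Cidea (ENSMUSG00000024526, chromosome 18) and Cidec (ENSMUSG00000030278, chr6:113424634-113435760, − strand) encode CIDE proteins, which fuse droplets into larger ones. Cidea had 0 counts in all 4 hepatocyte WT libraries and in hepatocyte KO replicates 1 to 3, and 7 in KO replicate 4. In whole liver it had 1 count in 1 tissue WT library and 3 in 1 tissue KO library. Cidec was at 0.908, 0.634, 0.586 and 0.322 FPKM in hepatocyte WT and 1.503, 1.20, 0.873 and 0.947 in hepatocyte KO, with WT replicate 1 inside the KO range. Its log2 change was 0.80 ± 0.47 (edgeR adjusted p = 0.683). In whole liver Cidec was at 1.04, 0.350, 1.11 and 1.31 FPKM in WT and 1.85, 3.39, 0.567 and 1.89 in KO. It was the 1 member below an unadjusted p of 0.05 there, with a change of 1.01 ± 0.46 and an edgeR adjusted p of 0.290.

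Fitm1 (ENSMUSG00000022215, chr14:55575617-55576952, + strand) encodes a protein of the endoplasmic reticulum that helps triglyceride enter droplets. It stood at 30.6, 7.93, 14.1 and 19.5 FPKM in hepatocyte WT replicates 1 to 4 and at 28.6, 44.3, 37.1 and 34.1 in hepatocyte KO. WT replicate 1 lay just above KO replicate 1, and the other WT libraries were below all KO libraries. The change was 0.93 ± 0.37 (edgeR adjusted p = 0.452). Within each genotype Fitm1 placed the hepatocyte libraries in the same order as Pparg: replicates 2, 3, 4 and 1 from low to high in WT, and 1, 4, 3 and 2 in KO. The share of all genes with this order was not counted, and in whole liver Fitm1 did not keep the order of Pparg in either genotype. In whole liver Fitm1 was at 22.7, 20.1, 58.7 and 45.1 FPKM in WT and 61.4, 47.4, 30.7 and 63.7 in KO, which overlapped (0.47 ± 0.36, edgeR adjusted p = 0.531). Gm15932 shares 109 of its 971 exon bases on the opposite strand and did not exceed a mean of 0.123 FPKM in the groups of hepatocytes and of DDC.

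Plin2 (ENSMUSG00000028494, chr4:86648386-86670060, − strand) and Plin4 (ENSMUSG00000002831, chr17:56100591-56109803, − strand) encode perilipins, which coat droplets. Plin2 was at 220, 187, 197 and 169 FPKM in hepatocyte WT and 211, 166, 170 and 223 in hepatocyte KO, the same range. Its change of -0.08 ± 0.13 (edgeR adjusted p = 0.916) had the smallest standard error of the 9 genes. Plin4 was at 0.378, 0.0947, 0.788 and 0.182 FPKM in hepatocyte WT and 0.493, 1.17, 0.502 and 0.349 in hepatocyte KO. WT replicate 3 lay above 3 of the KO libraries, and the change was 0.71 ± 0.64 (edgeR adjusted p = 0.822).

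Of the genes of uptake, Cd36 (ENSMUSG00000002944, chr5:17781690-17888959, − strand) encodes a fatty acid transporter and scavenger receptor, and Vldlr (ENSMUSG00000024924, chr19:27216484-27254231, + strand) a receptor for triglyceride-rich lipoproteins. Cd36 was at 4.24, 3.82, 2.29 and 8.90 FPKM in hepatocyte WT replicates 1 to 4 and at 3.33, 3.295, 40.4 and 24.2 in hepatocyte KO. KO replicates 3 and 4 stood far above the rest, while KO replicates 1 and 2 lay within the WT range. The change of 1.84 ± 0.63 (edgeR adjusted p = 0.342, exact permutation p = 0.343) was 1.02 without KO replicate 3. Vldlr was at 1.01, 0.739, 0.228 and 1.05 FPKM in hepatocyte WT and at 0.910, 1.90, 3.03 and 4.79 in hepatocyte KO. KO replicates 2 to 4 were above every WT library and KO replicate 1 was not, with a change of 1.77 ± 0.50 (edgeR adjusted p = 0.197).

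KO replicates 3 and 4, the highest for Cd36, Vldlr and Mogat1, had macrophage marker sums of 9.51 and 8.96 FPKM and endothelial sums of 22.5 and 17.1, the lowest of the 4 KO libraries. The titles of these libraries carry close numbers, as does that of WT replicate 4, which had the highest Cd36 and Vldlr of the WT libraries. What the numbers mean is not given in the sources used here. Over all genes tested, deviations from the group means correlated at 0.189 for WT 1 with KO 1, 0.255 for WT 3 with KO 2, 0.299 for WT 4 with KO 3 and 0.0952 for WT 4 with KO 4. With neighbouring numbers as a block, the change of Cd36 was 0.72 (edgeR adjusted p = 0.612), that of Vldlr 1.51 (0.375), that of Mogat1 2.49 (0.354) and that of Pparg 1.48 (0.260). That fit held the hepatocyte libraries alone, and WT replicate 2 had a block to itself, so it did not inform these changes. The block and the loss of that library cannot be told apart here.

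**Figure D2:**
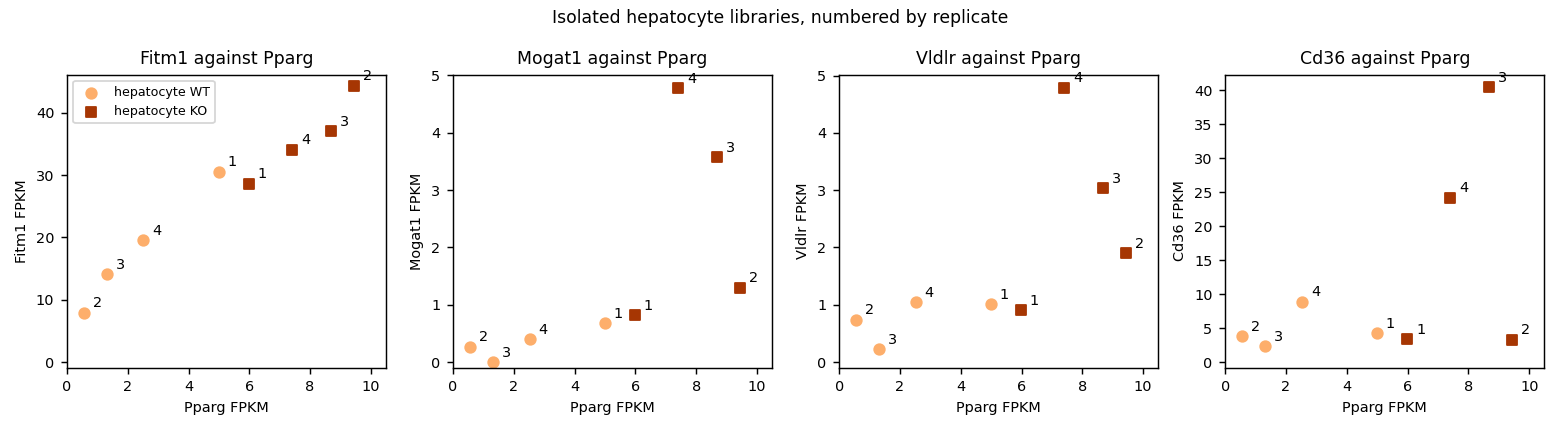
Level in FPKM of Fitm1, Mogat1, Vldlr and Cd36 (vertical axes) against that of Pparg (horizontal axis) in the 8 hepatocyte libraries, numbered by replicate, with circles for WT and squares for KO. Fitm1 placed the hepatocyte libraries of each genotype in the order of Pparg, though not those of whole liver. Cd36 was high only in KO replicates 3 and 4 (40.4 and 24.2 FPKM).

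Fabp4 (ENSMUSG00000062515, chr3:10204347-10208576, − strand) encodes a fatty acid carrier of adipocytes, macrophages and capillary endothelium. It was at 0.963, 3.59, 1.35 and 2.32 FPKM in hepatocyte WT and 5.25, 2.19, 2.79 and 4.95 in hepatocyte KO, overlapping (0.81 ± 0.35, edgeR adjusted p = 0.508). In whole liver it was at 12.5, 10.49, 11.03 and 7.50 FPKM in WT and 14.9, 15.8, 13.5 and 13.3 in KO. Every KO library was above every WT library in FPKM, but the groups overlapped once totals were scaled (0.46 ± 0.31, edgeR adjusted p = 0.473, exact permutation p = 0.0571).

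In whole liver none of the 9 genes passed the test, which 0.008% of genes did (edgeR, 1 gene, Ptk2), and 1 was below an unadjusted p of 0.05, where 16.1% of genes were. DESeq2 called 0 of them and 1.86% of genes. The median log2 change was 0.29 against -0.01 over all genes tested. Cd36 was at 3.64, 6.79, 4.60 and 7.07 FPKM in WT and 9.43, 7.06, 6.84 and 5.23 in KO (0.38 ± 0.62, edgeR adjusted p = 0.785). Vldlr was at 0.865, 2.71, 0.957 and 1.04 FPKM in WT and 0.749, 0.452, 0.933 and 1.03 in KO (-0.82 ± 0.50, edgeR adjusted p = 0.423). WT replicate 2 alone was high for Vldlr, and Cd36 overlapped between genotypes. Plin2, at 133 to 207 FPKM in WT and 136 to 162 in KO, and Plin4, at 0.0156 to 0.319 in WT and 0.0212 to 0.170 in KO, also overlapped. Biliary marker sums were 8.00 to 15.5 FPKM in WT and 18.0 to 25.9 in KO, higher in every KO library. Of the 5 single markers 4 had a higher and 1 a lower estimate in KO, and 0 passed. The part of biliary cells in these values was not tested.

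Whether the genotype difference itself was larger in hepatocytes than in whole liver was tested as an interaction. None of the 9 genes passed (edgeR, 0% of genes did), 2 were below an unadjusted p of 0.05 (8.01% of genes) and DESeq2 called 0 (0.279% of genes). The largest were Vldlr at 2.59 ± 0.71 (edgeR adjusted p = 0.425) and Mogat1 at 2.63 ± 0.88 (0.570), the 2 below that unadjusted p. Pparg, at 1.44 ± 0.68 (0.613), and Cd36, at 1.46 ± 0.87 (0.664), were smaller. With both materials pooled, 8 libraries per genotype, none passed (edgeR, 0.0253% of genes), 4 were below an unadjusted p of 0.05 (5.94% of genes) and DESeq2 called 0 (0.251%).

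**Figure D3:**
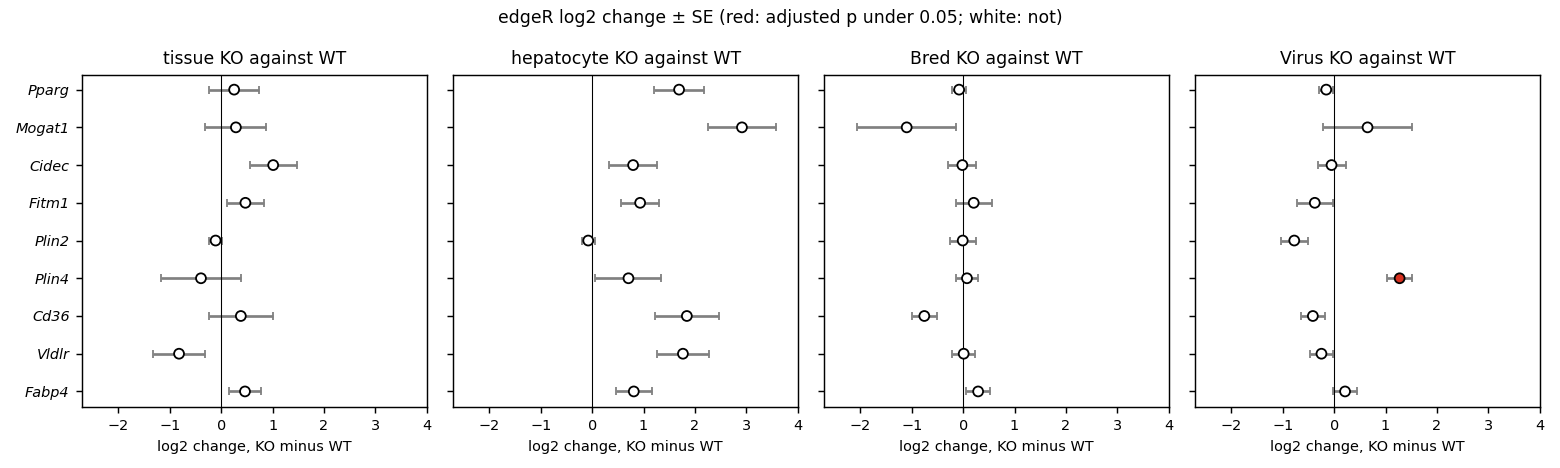
edgeR log2 change, KO minus WT (horizontal axis), with its standard error as a bar, of the 9 tested genes (rows) in tissue, hepatocytes, Bred and Virus. Red marks an adjusted p under 0.05, and Plin4 in Virus (1.27 ± 0.24) is the single red point, while in hepatocytes 8 of the 9 genes lie right of 0.

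Isolated hepatocytes were also set against whole liver within each genotype, a comparison that shares its libraries with those above. In WT 2 of the 9 genes passed, both lower in hepatocytes, where 25.4% of genes passed. Fabp4 was 0.963 to 3.59 FPKM in hepatocytes and 7.50 to 12.5 in whole liver, with no overlap (-2.30 ± 0.35, edgeR adjusted p = 0.00108). Mogat1 was 0 to 0.681 FPKM against 1.09 to 2.05, also with no overlap (-2.05 ± 0.68, edgeR adjusted p = 0.0363). Of all genes tested 24.3% did not overlap in this comparison. The call of Mogat1 was lost without tissue WT replicate 1 (adjusted p = 0.0604) or 3 (0.101) and without hepatocyte WT replicate 2 (0.0771), 3 (0.0690) or 4 (0.0592). Fitm1 had a change of -0.98 ± 0.37 (edgeR adjusted p = 0.0608) and passed without tissue WT replicate 2 (0.0291) or hepatocyte WT replicate 1 (0.0307). Plin2, at 0.33 ± 0.13 (edgeR adjusted p = 0.0722), and Plin4, at 1.54 ± 0.71 (0.118), passed without tissue WT replicate 4 (0.0176 and 0.0245). For Plin4 the change was then 2.64, and it was 0.79 (edgeR adjusted p = 0.438) without hepatocyte WT replicate 3. Pparg (-0.60 ± 0.49) and Vldlr (-0.84 ± 0.50) did not pass. All 7 macrophage markers passed as lower in hepatocytes too, and the part of macrophages and endothelium in the Fabp4 difference was not tested.

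In KO 4 of the 9 genes passed, where 44.1% of all genes did. Plin4 was 0.349 to 1.17 FPKM in hepatocytes and 0.0212 to 0.170 in whole liver (2.64 ± 0.73, edgeR adjusted p = 0.00803). Vldlr was higher in hepatocytes by 1.74 ± 0.50 (edgeR adjusted p = 0.0104), although its groups overlapped at KO replicate 1. Plin2 was higher by 0.36 ± 0.13 (edgeR adjusted p = 0.0334), a call lost without any of hepatocyte KO replicates 1 and 4 and tissue KO replicates 1, 3 and 4 (adjusted p 0.0576 to 0.108). Fabp4 was lower by -1.95 ± 0.33 (edgeR adjusted p = 0.000451). Pparg (0.84 ± 0.47, edgeR adjusted p = 0.161) did not pass, and Cd36 (1.31 ± 0.62, 0.0935) passed without hepatocyte KO replicate 1 (0.0234) or 2 (0.0286), while without hepatocyte KO replicate 3 it was 0.49 (0.515).

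On DDC the levels of several genes were higher than in unfed whole liver, given here side by side with no test because the 2 experiments are separate tables and diet, age and sequencing run cannot be told apart. Pparg was 9.52 to 13.9 FPKM in the 12 DDC libraries and 1.495 to 6.08 in the 8 unfed livers. Cd36 was 35.3 to 89.2 against 3.64 to 9.43, Cidec 3.79 to 10.49 against 0.350 to 3.39, Vldlr 3.13 to 5.54 against 0.452 to 2.71 and Plin4 0.474 to 3.52 against 0.0156 to 0.319. For these 5 genes every DDC library was above every unfed liver library. The share of all genes that stood apart in this way was not counted, so this is not a trait of these genes. Mogat1, Cidea, Plin2, Fitm1 and Fabp4 overlapped between the experiments, with Fitm1 at 10.02 to 39.9 FPKM on DDC and 20.1 to 63.7 in unfed liver.

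The next question was whether FAK loss changes these genes on DDC, and whether the method of deletion matters. With deletion by breeding, none of the 9 genes passed (edgeR, 6.25% of 13955 genes did), 1 was below an unadjusted p of 0.05 (24.6% of genes), and DESeq2 called 1 (12.4% of genes). Their median log2 change was -0.01, as it was over all genes tested. The 1 gene was Cd36 in both cases, at 87.7, 46.3 and 67.4 FPKM in Bred WT replicates 1 to 3 and 56.5, 35.3 and 38.6 in Bred KO. Bred KO replicate 1 lay within the WT range, but for each of the 3 replicate numbers the KO library was lower than the WT library. The change was -0.75 ± 0.24 (edgeR adjusted p = 0.0767), and Cd36 passed without Bred WT replicate 2 (-0.96, 0.0368), without Bred KO replicate 1 (-0.95, 0.0447) and with the replicate number as a block (-0.73, 0.0270), where 12.4% of genes passed. The change was smaller without Bred WT replicate 1 (-0.51, edgeR adjusted p = 0.246), Bred KO replicate 3 (-0.66, 0.216) or Bred KO replicate 2 (-0.67, 0.207). Macrophage marker sums were 238 to 350 FPKM in Bred WT and 360 to 514 in Bred KO. Stellate and fibroblast sums were 107 to 169 against 249 to 286, and endothelial sums 55.0 to 63.3 against 68.7 to 75.5. All these sums were higher in every KO library. Taken singly, 0 of the 7 macrophage, 2 of the 6 stellate and fibroblast (both higher) and 0 of the 6 endothelial markers passed. A lower estimate in KO was seen for 1 macrophage and 2 endothelial markers. The part of these cells in the values of Cd36 was not tested. Log2 changes here and in Virus are lower than FPKM ratios by 0.12 and 0.17, since edgeR scales totals.

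The other genes of Bred mice overlapped between genotypes. Pparg was at 11.4, 10.6 and 11.6 FPKM in Bred WT and 11.8, 9.52 and 13.3 in Bred KO, the narrowest spread of its 8 groups relative to its mean being in Bred WT (11.2 ± 0.513). Mogat1 ranged from 0.0857 to 3.51 FPKM within Bred WT alone, on 2 to 85 counts, and from 0.162 to 1.04 in Bred KO. Plin2 ran from 137 to 286 FPKM in WT and 174 to 291 in KO, Plin4 from 1.74 to 3.52 and 2.61 to 3.35, and Cidec from 3.79 to 10.49 and 6.97 to 8.44. Vldlr was at 3.26 to 5.54 FPKM in WT and 3.97 to 5.11 in KO, Fitm1 at 10.6 to 22.1 and 10.02 to 32.9, and Fabp4 at 10.3 to 17.1 and 14.6 to 25.0 (0.29 ± 0.24, edgeR adjusted p = 0.480). Cidea had 3 to 4 counts in Bred WT and 2 to 12 in Bred KO.

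With deletion by the vector 1 of the 9 genes passed, Plin4, where 2.66% of genes did. Plin4 was at 0.521, 0.539 and 0.474 FPKM in Virus WT replicates 1 to 3 and at 1.33, 1.51 and 1.33 in the 3 KO replicates, on 50 to 57 counts against 137 to 154. All KO libraries were above all WT libraries, with little spread within either group. The log2 change was 1.27 ± 0.24 (edgeR adjusted p = 0.0215), and the exact permutation p was 0.1, the smallest that 3 against 3 can give. Leaving out any 1 of the 6 Virus libraries took the adjusted p to between 0.0509 and 0.0808 while the change stayed between 1.20 and 1.32. Hdgfrp2 (Hdgfl2 in the annotation) shares 17 of the 5777 exon bases of Plin4 on the opposite strand and changed by -0.10 (edgeR adjusted p = 0.794). Stellate and fibroblast marker sums were 121 to 155 FPKM in Virus WT and 167 to 219 in Virus KO, higher in every KO library. All 6 single markers had a higher estimate in KO and 1 passed. The part of these cells in the Plin4 difference was not tested. Adipocyte marker sums were 0.213 to 0.530 FPKM in Virus WT and 0.0906 to 0.236 in Virus KO, with Adipoq, Plin1, Lep and Retn at 0 in all 6.

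Plin2 had the opposite sign in the same livers, at 364, 433 and 327 FPKM in WT and 218, 234 and 287 in KO. Again the groups did not overlap, and with Plin4 this made 2 of the 9 genes, where 32.3% of genes did not overlap. The change of -0.78 ± 0.26 had an edgeR adjusted p of 0.129. Plin2 passed without Bred WT replicate 1 (0.0410), which enters through the shared spread, with DESeq2 (0.0430) and with the 2 Virus groups fitted alone (0.0134). Cd36 was at 55.6, 89.2 and 69.5 FPKM in WT and 67.7, 61.6 and 51.1 in KO, overlapping (-0.41 ± 0.24, edgeR adjusted p = 0.376).

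Of the remaining genes, Pparg was at 12.1, 12.4 and 10.8 FPKM in WT and 10.8, 13.9 and 10.9 in KO. Mogat1 was at 0.873, 4.83 and 0.800 FPKM in WT and 4.06, 4.07 and 3.38 in KO, so that only WT replicate 2 was as high as the KO libraries. Cidec (6.82 to 9.44 against 8.98 to 9.31 FPKM), Vldlr (3.39 to 5.32 against 3.13 to 4.23), Fitm1 (29.5 to 39.9 against 22.3 to 37.6) and Cidea (1 to 6 against 1 to 3 counts) overlapped. Fabp4 was 17.7 to 26.0 FPKM in WT and 28.0 to 33.1 in KO, apart in FPKM but overlapping once totals were scaled.

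**Figure D4:**
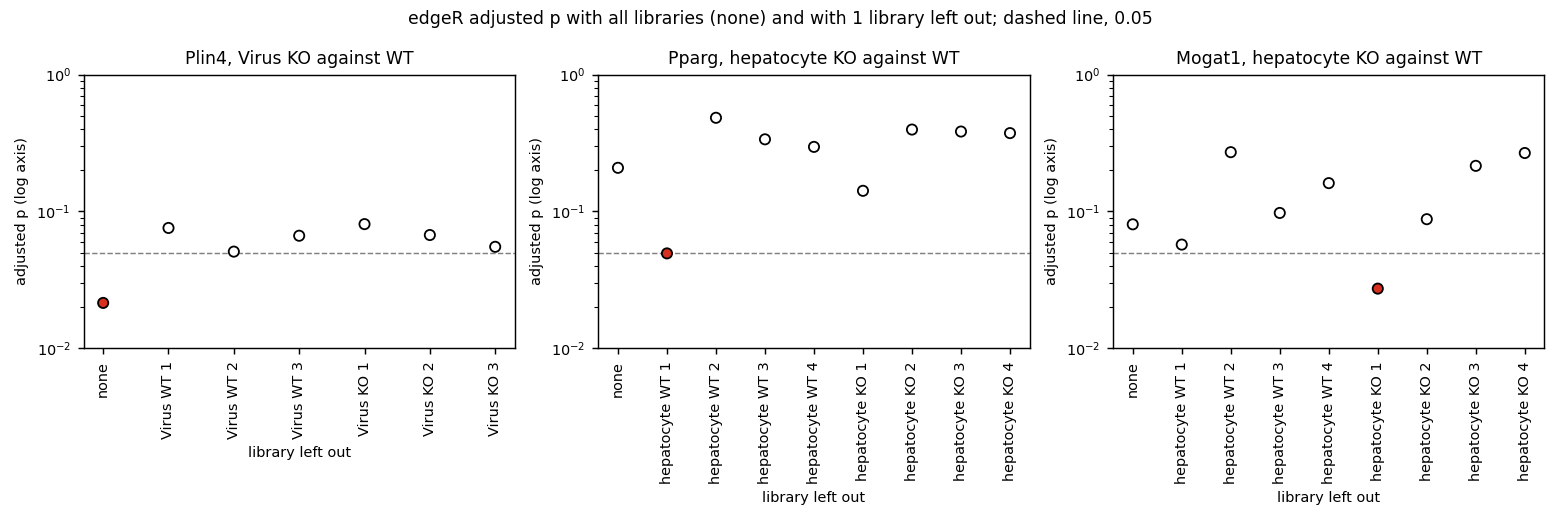
edgeR adjusted p (vertical axis, log scale) with all libraries and with each library of the compared groups left out in turn. Shown are Plin4 in Virus and Pparg and Mogat1 in hepatocytes. The Plin4 change, which is not drawn, stayed between 1.20 and 1.32 while its adjusted p moved from 0.0215 to between 0.0509 and 0.0808. Pparg passed only without hepatocyte WT replicate 1 (0.0494) and Mogat1 only without hepatocyte KO replicate 1 (0.0273).

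Over both methods together 1 gene passed, Plin4 (0.67 ± 0.16, edgeR adjusted p = 0.0313), where 6.41% of genes did. That call was lost without Bred KO replicate 2 or 3 or any Virus library (adjusted p 0.0607 to 0.0712). Cd36 had a change of -0.58 ± 0.17 (edgeR adjusted p = 0.0581) and passed without Bred WT replicate 2 (-0.69, 0.0270), without Bred KO replicate 1 (-0.68, 0.0334) and with the replicate block (-0.56, 0.0203). Without Bred WT replicate 1 it was -0.46 (edgeR adjusted p = 0.106), without Virus WT replicate 2 -0.48 (0.135) and without Bred KO replicate 3 -0.54 (0.130). Plin2 had a change of -0.39 ± 0.18 (edgeR adjusted p = 0.197). In a direct test of whether the genotype difference depended on the method, none of the 9 genes passed (edgeR, 3.21% of genes did), while 1 was below an unadjusted p of 0.05 (17.6% of genes) and DESeq2 called 1 (6.26% of genes). In both cases the gene was Plin4, whose Bred minus Virus difference was -1.20 ± 0.33 (edgeR adjusted p = 0.0701) and which passed without Bred WT replicate 2 (-1.43, 0.0169). That of Plin2 was 0.77 ± 0.36 (0.293).

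Bred and Virus livers were also compared within each genotype, with the same libraries. In WT, where no gene is deleted, the breeding line and the vector cannot be told apart, and in KO the cells and the time of deletion differ as well. Among WT livers 4 of the 9 genes passed, where 16.4% of genes did. Plin4 was 1.74 to 3.52 FPKM in Bred WT and 0.474 to 0.539 in Virus WT, higher in Bred by 2.35 ± 0.24 (edgeR adjusted p = 0.000204) and called in all 17 alternatives. Plin2 (-0.96 ± 0.26, edgeR adjusted p = 0.0255), Fitm1 (-1.21 ± 0.35, 0.0353) and Fabp4 (-0.79 ± 0.24, 0.0387) were lower in Bred WT. These 3 calls were each lost without some libraries, at adjusted p up to 0.0831 for Plin2, 0.0959 for Fitm1 and 0.132 for Fabp4, in each case with Virus WT replicates 1 and 2 and Bred WT replicate 2 among them. Plin2 and Fabp4 also lost theirs without Bred WT replicate 3, Fitm1 without Bred WT replicate 1, Virus WT replicate 3 or Virus KO replicate 1, and Fabp4 without any Virus KO replicate. Endothelial marker sums were 55.0 to 63.3 FPKM in Bred WT against 70.2 to 77.3 for Virus, hepatocyte sums 28760 to 29940 against 21440 to 25930, neither overlapping, and macrophage sums 238 to 350 against 333 to 383. Among single markers 4 of the 6 endothelial (1 higher and 3 lower in Bred), 2 of the 7 macrophage (both lower) and 0 of the 6 hepatocyte markers passed, and their part in these differences was not tested.

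Among KO livers 1 of the 9 passed, where 3.02% of genes did. Plin4 was 2.61 to 3.35 FPKM in Bred KO and 1.33 to 1.51 in Virus KO, with no overlap (1.16 ± 0.23, edgeR adjusted p = 0.0206), a call lost without Bred KO replicate 2 or any Virus KO library (0.0727 to 0.0949). Among all genes tested 28.5% did not overlap between these groups. Mogat1 was 0.162 to 1.04 FPKM in Bred KO and 3.38 to 4.07 in Virus KO, and its change of -2.40 ± 0.94 had an edgeR adjusted p of 0.164. Fabp4, 14.6 to 25.0 against 28.0 to 33.1 FPKM, had a change of -0.71 ± 0.23 (edgeR adjusted p = 0.111) and passed without Bred KO replicate 1 (-0.96, 0.0356).

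Around these 10 genes, 71 others of the same processes were read in 5 lists: partners and relatives of PPARG, other droplet proteins and lipases, triglyceride assembly, fatty acid uptake and carriers, and other adipocyte targets of PPARG. The lists too were chosen with earlier results of these data known, so their shares beside those of all genes are a description. In unfed mice none of the 66 tested passed, in whole liver (median log2 change -0.18) or in hepatocytes (0.05), beside -0.01 over all genes tested in each. Nearest in hepatocytes were Cyp4b1, a cytochrome P450 (-0.98 ± 0.23, edgeR adjusted p = 0.0886), Cebpd, a transcription factor of early adipogenesis (1.29 ± 0.34, 0.159), and Lpin2, a phosphatidate phosphatase of triglyceride synthesis (1.20 ± 0.32, 0.171). In the droplet list the nearest was Cideb, the third CIDE protein (0.87 ± 0.27, edgeR adjusted p = 0.260), and in the uptake list Acsl4, an acyl-CoA synthetase (0.31 ± 0.22, 0.756). In whole liver the gene nearest the threshold in each list was the corepressor Ncor1 (-0.65 ± 0.19, edgeR adjusted p = 0.185), Hsd17b13, an enzyme of the droplet surface (0.49 ± 0.18, 0.221), Gpam, the acyltransferase that begins triglyceride synthesis (-0.60 ± 0.25, 0.262), the acyl-CoA synthetase Acsl1 (-0.50 ± 0.13, 0.179) and the glycerol-3-phosphate dehydrogenase Gpd1 (-0.33 ± 0.15, 0.290).

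In Bred mice 7 of the 69 tested passed, all lower in KO, which is 10.1% beside 6.25% of all genes, with a median log2 change of -0.15 beside -0.01. The 3 adipocyte targets among them were Aqp7, a glycerol channel (2.11 to 4.07 FPKM in WT and 0.611 to 1.60 in KO, -1.56 ± 0.30, edgeR adjusted p = 0.0143), Acaa1b, a peroxisomal thiolase (-1.22 ± 0.23, 0.0130), and Retsat, a retinol saturase (-0.89 ± 0.19, 0.0224). The others were Ppara (32.4 to 33.2 FPKM in WT and 15.2 to 19.3 in KO, -1.04 ± 0.27, edgeR adjusted p = 0.0394), the droplet enzymes Hsd17b11 (-0.82 ± 0.16, 0.0162) and Hsd17b13 (-0.49 ± 0.13, 0.0423), and the acyltransferase Gpat3 (-0.71 ± 0.15, 0.0224). Acaa1b and Retsat are also known as targets of PPARA in liver, and the part of Ppara in their values was not tested.

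In Virus mice 6 of the 69 passed, 1 higher and 5 lower in KO, 8.70% beside 2.66% of all genes, with a median of -0.04 beside 0.01. G0s2, an inhibitor of the droplet lipase ATGL, was 1.10 to 7.69 FPKM in WT and 31.1 to 37.1 in KO (2.83 ± 0.51, edgeR adjusted p = 0.0167). The phosphatidate phosphatases Lpin1 (25.3 to 51.5 FPKM in WT and 8.56 to 10.04 in KO, -2.19 ± 0.29, edgeR adjusted p = 0.00305) and Lpin2 (-1.07 ± 0.14, 0.00267) were lower. So were Hilpda, another inhibitor of ATGL (-1.42 ± 0.34, edgeR adjusted p = 0.0475), Pck1, an enzyme of gluconeogenesis and glycerol synthesis (-1.79 ± 0.37, 0.0280), and Cebpd (-1.86 ± 0.43, 0.0397). No gene of uptake passed in either, with Slc27a2, a fatty acid transport protein, nearest in Bred (-0.61 ± 0.17, edgeR adjusted p = 0.0509) and Fabp5, a carrier, in Virus (1.20 ± 0.37, 0.103). None of the 6 genes that passed in Virus passed in Bred. Mean FPKM in Bred WT and KO was 20.5 and 16.4 for G0s2, 19.6 and 25.3 for Lpin1, and 2.62 and 3.13 for Hilpda. It was 514 and 823 for Pck1 and 12.7 and 31.2 for Cebpd. All these went against their direction in Virus, unlike Lpin2 (49.9 and 47.5). Between Bred WT and Virus WT 19 of the 69 passed (27.5% beside 16.4% of all genes). For the Bred minus Virus difference 6 did (8.70% beside 3.21%).

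Likeness to Pparg was measured as Pearson's r of log2(CPM + 1) over the 16 unfed and the 12 DDC libraries, as a description, since the libraries share groups and depth. By the smaller of the 2 values Fitm1 was the member most like Pparg (r = 0.76 unfed and 0.63 on DDC), followed by Cd36 (0.43 and 0.44). In unfed libraries Mogat1 (0.71) and Vldlr (0.57) stood above Cd36, but on DDC they had 0.28 and 0.02, while Plin4 had r = 0.36 unfed and -0.31 on DDC. Of 12271 genes compared, those outside the set with the highest smaller value of the 2 included 2010003K11Rik (0.69 and 0.66), Tmem97 (0.67 and 0.64), Gstm3 (0.70 and 0.62) and Klhl21 (0.61 and 0.67).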

How the data were processed

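Whole liver and isolated hepatocytes (perfusion and Percoll) were sequenced after ribosomal RNA removal. The authors aligned reads with STAR to mm10 and, per the labels, made the deposited counts per gene with HTSeq 0.6.1. The FPKM deposited by the authors follow from those counts and the gene lengths. The counts were used for tests and the FPKM for levels. The 10 genes and all lists were chosen with earlier results of these data known. All 10 are named, with the genes that passed, or had the smallest p, in each of 5 lists. Genes with low counts were removed by filterByExpr (at least 10 counts, total of at least 15), totals were scaled by TMM, and the 4 groups of an experiment entered a single fit, tested by quasi-likelihood in edgeR (version 4.0.16, under R version 4.3.3). This kept 12507 unfed genes, 13955 DDC genes and 11857 for the pooled comparison. P-values were adjusted by Benjamini-Hochberg and called at 0.05. The standard error is the change divided by the root of F. Permutation tests and overlap of groups used log2(CPM + 1) with TMM totals. Alternatives were DESeq2 1.42.0 and its size factors, no count filter, limma 3.58.1 on log2(FPKM + 1) and log2(FPKM + 0.1), a gene length trend, a replicate block, groups fitted alone and libraries left out. Same-numbered Bred libraries deviated together (correlations 0.268, 0.273 and 0.320), and the replicate block is given as an alternative only. Whether the numbers pair animals is not given in the sources used here. No 2 replicates were copies (chi-square per degree of freedom 14.0 to 94.4). Each library is said to come from 1 animal. The tests were tested on simulated data. One gene among those most like Pparg is not reported here.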

Additional observations from a re-analysis of the deposited data

Results flagged for a closer look

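In 39 groups of 4 libraries, 4 had a library far from the others, and chance alone flags about 1 in 20. That rate does not hold for the 3 groups of Cidea among them, where the other libraries are at 0 and any count stands apart. Vldlr was 2.71 FPKM in tissue WT replicate 2 against 0.865 to 1.04 in the others. The rest were Cidea, at 0.327 FPKM in hepatocyte KO replicate 4, 0.167 in tissue KO replicate 1 and 0.0451 in tissue WT replicate 4, with 0 in the other 3 libraries of each group. These rest on 7, 3 and 1 counts.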

How the results depend on the processing

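Over 1115 refits of 50 single-gene changes, none turned direction, 60 lost a call and 36 gained one. The 50 are a chosen part of the changes of the 9 genes over all comparisons. Some changes near 0, such as those of Cidec (-0.02) and Vldlr (0.01) in Bred mice, were left out. The direction of the changes left out was not counted. The number of the 9 genes that passed moved as follows. With DESeq2 it was 2 in hepatocytes, 4 in hepatocyte against tissue WT, 1 for Bred, 2 for Virus, 2 for the methods together and 1 for their difference. With no count filter it was 1 in hepatocytes, 1 in Bred, 2 over both methods and 1 for the difference. With limma on log2(FPKM + 1) it was 1 in hepatocyte against tissue WT, 0 in Virus, 0 over both methods, 1 in Bred against Virus WT and 0 in KO, and with a pseudocount of 0.1 it was 1 and 0 in the last pair. It was 4 in hepatocyte against tissue WT without tissue WT replicates 2 and 4, and 2 in Virus with the groups fitted alone. Leaving out single libraries gave 0 to 1 in hepatocytes, 1 to 4 in hepatocyte against tissue WT, 3 to 5 in KO, 0 to 1 in Bred, 0 to 2 in Virus, 0 to 2 over both methods, 0 to 1 for their difference, 1 to 4 in Bred against Virus WT, 0 to 2 in KO, and 0 in the other comparisons. The cause of these moves was not tested.

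With the replicate block the number was 1 for Bred, 2 for Virus and 2 for the methods together, and with the gene length trend removed as well 1 in Bred and 2 in Virus. Correlations at the same replicate number, as distinct from the numbers in the titles, were not all positive in tissue, hepatocytes or Virus. They ran from -0.12 to 0.25 in tissue, from -0.27 to 0.19 in hepatocytes and from -0.06 to -0.04 in Virus.

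Over all genes the block gave 1735 in Bred, 677 in Virus, 1751 over both methods and 16 in pooled unfed mice, and with the length trend 1885 in Bred, 758 in Virus and 2 in tissue. DESeq2 gave 183 in tissue, 157 in hepatocytes, 36 for their difference, 40 pooled, 1687 in Bred, 914 in Virus, 1778 over both, 879 for their difference and 1126 in Bred against Virus KO. With limma these were 15, 25 and 1 for the first 3, and 114 and 194 for the last pair, and with a pseudocount of 0.1 they were 13 in tissue, 26 in hepatocytes, 499 in Bred, 154 and 167. No filter gave 2 in tissue and 3 for the hepatocyte difference, and the length trend alone 2 in tissue. Groups alone gave 5 in hepatocytes, 0 in Bred and 1306 in Virus. Material as a term gave 24 pooled, and leaving out tissue WT replicates 2 and 4 gave 5 pooled and 4903 in hepatocyte against tissue WT. Leaving out single libraries gave 1 to 994 in tissue (994 without WT replicate 1), 16 to 73 in hepatocytes, 248 to 1242 in Bred, 64 to 688 in Virus and 58 to 1010 in Bred against Virus KO. Cidea had at most 12 counts in any library and did not pass the count filter.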
